A study of Mus musculus with 35 samples.

Results

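The genes described are 10 targets of the transcription factor p53, set by symbol with earlier results of these data known: Cdkn1a, Mdm2, Gdf15, Ccng1, Trp53inp1, Eda2r, Phlda3, Zmat3, Bbc3 and Sesn2. They are 10 of the 57186 genes in the deposited table, each symbol was found there, and all 10 passed the filter on low counts that left 20606 genes to test. RNA from whole lung was sequenced from naphthalene-treated KO mice (RORaf/fIl7riCre), naphthalene-treated control mice (RORaf/f), untreated KO mice and untreated control mice, each with the day labels 2, 5 and 7. All of these mice carry the floxed Rora alleles, and only the KO mice carry a Cre at Il7r, so that loss of RORa in the lineage of Il7r-expressing cells and the presence of that Cre cannot be told apart. The series design gives an age of 14 days for the mice and no separate age for each day label. Each of the 12 groups had 3 libraries, except for treated KO mice at day 7 with 2 libraries. The labels do not say that each library is a separate mouse, so p-values measure the spread between these libraries.

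p53 is stabilised when DNA is damaged or a cell is otherwise stressed, and it then raises the transcription of genes that halt the cell cycle, promote cell death or repair, or limit p53 itself. Naphthalene is turned into reactive metabolites by cytochrome P450 enzymes of the club cells of the airway, which are lost after treatment. Several targets, Cdkn1a, Gdf15 and Sesn2 among them, also answer to other regulators, such as glucocorticoid receptor or the stress factor ATF4.

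The p53 response element is a pair of 10-base half-sites, each of 3 purines, C, 2 bases of A or T, G and 3 pyrimidines, with a spacer of 0 to 13 bases between them. It was searched on both strands in windows of 300 bases around RefSeq gene starts (GRCm38.p6), of which the 10 genes had entries for 8; Zmat3 and Trp53inp1 had none. An exact half-site was found in 8.36% of the 32851 windows, an element with at most 2 mismatches in 4.09%, with at most 1 in 0.627% and with 0 mismatches in 0.0731%. The stretches below are shown because they hold the only half-sites found in the windows of these genes, at Cdkn1a (chr17:29090891-29090962, plus strand), Ccng1 (chr11:40755447-40755501, minus strand) and Mdm2 (chr10:117710920-117710959, minus strand). Capitals mark the half-sites, mismatched ones included, of the pairs described after the sequences, and the single half-site of Mdm2.
Cdkn1a: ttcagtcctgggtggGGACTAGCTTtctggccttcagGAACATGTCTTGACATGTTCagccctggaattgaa
Ccng1: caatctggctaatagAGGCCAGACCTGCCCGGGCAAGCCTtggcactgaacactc
Mdm2: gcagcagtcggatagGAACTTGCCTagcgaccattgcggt
The Cdkn1a stretch lies before the upstream of its listed starts and holds an element with 0 mismatches and a spacer of 12 bases, whose first base is at position -73 from that start. The second half-site of that element also forms a pair with 1 mismatch and a spacer of 0 with the 10 bases that follow it. The Ccng1 stretch holds a pair with 1 mismatch and a spacer of 0 at position -195, and an overlapping pair with 2 mismatches and a spacer of 5 that begins before it. The Mdm2 stretch holds a single half-site at position -186. A match is a description of letters in these windows, and no binding was measured. Sequence outside the windows was not searched, so a window without a half-site does not show that a gene lacks an element.

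Library totals ran from 10.7 to 21.06 M counts, and values are given as CPM, counts scaled to library totals after TMM scaling, where 1 read is worth 0.0486 to 0.0885 CPM. Rora itself, counted over the whole gene in whole lung, had 25.2 to 63.9 CPM in the 35 libraries; Cre acts on it only in the Il7r lineage, so this level does not check the genotype labels. The lung epithelial markers were present, with Sftpc at a mean of 13348 CPM and Scgb1a1 at 5981 CPM. Scgb1a1 fell by 3.77 on the log2 scale at day 2 after naphthalene, to 494 CPM in treated lungs, against 6698 CPM in untreated lungs. Library names carry letters whose meaning the labels do not give. Treated and untreated libraries share no letter at days 2 and 5, so treatment and letter cannot be told apart there, while every library of day 7 carries the same letter.

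Across the 35 libraries the levels of the 10 genes spanned a wide range when set per kilobase of the longest annotated transcript (GENCODE M21). Cdkn1a, which encodes the cyclin-dependent kinase inhibitor p21, had 83.4 CPM per kb, and Phlda3, which encodes a pleckstrin homology protein that competes with AKT for membrane lipids, had 80.2 CPM per kb. Mdm2 (25.4), Trp53inp1 (22.4), Bbc3 (21.1), Ccng1 (11.5), Sesn2 (7.78) and Zmat3 (4.76 CPM per kb) followed. Gdf15 had 1.48 and Eda2r 0.385 CPM per kb, and these rest on 12 to 75 reads and 9 to 60 reads per library, so that their values are the least precise of the 10.

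**Figure D1:**
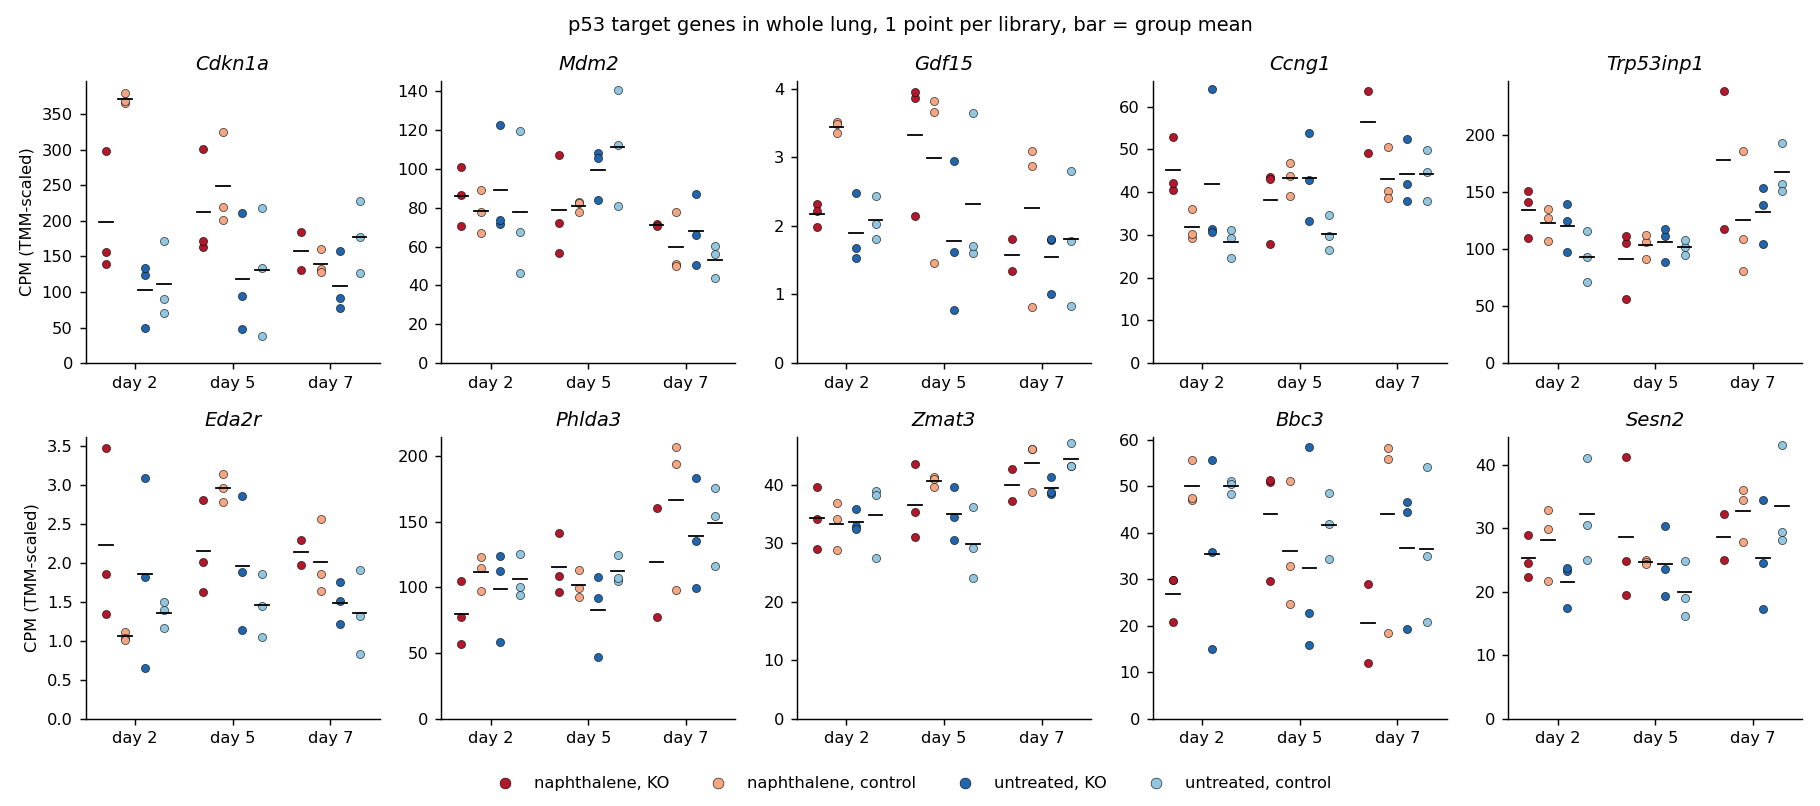
TMM-scaled CPM (vertical axis, linear from 0) of each of the 10 genes in every library, by day label, with naphthalene-treated KO, naphthalene-treated control, untreated KO and untreated control libraries from left to right and the group mean as a bar. The 3 treated control libraries of day 2 lie at 366 to 380.0 CPM of Cdkn1a, above every other library.

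At day 2 after naphthalene Cdkn1a was the only one of the 10 genes that passed the test. Treated KO lungs had 139.9, 156 and 298 CPM of Cdkn1a, against 49.4, 124 and 134 CPM in untreated KO lungs. Treated control lungs had 366, 380.0 and 369 CPM, against 90.1, 172 and 70.2 CPM in untreated control lungs. Within each genotype every treated library was above every untreated one, as for 9.92% of all genes in KO lungs and 10.7% in control lungs, while over both genotypes the 2 sets overlapped, since 2 treated KO libraries lay below the highest untreated control library. Averaged over both genotypes, Cdkn1a rose 2.55-fold, a log2 change of 1.35 ± 0.34 (SE; 95% interval 0.65 to 2.05), with treated lungs at 285 ± 110 CPM and untreated lungs at 107 ± 45 CPM (SD, n = 6 each; adjusted p = 0.0108, edgeR quasi-likelihood test with Benjamini-Hochberg adjustment over 20606 genes). That is 1 of 10 genes called, where 9.9% of all genes tested were called in either direction and 5.6% as higher. Without replicate 3 of the treated KO lungs the change was 1.14 and missed the threshold (adjusted p = 0.0504).

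By genotype, Cdkn1a rose in control lungs by a log2 change of 1.75 ± 0.48 (edgeR adjusted p = 0.0425; 3.76% of all genes called), and in KO lungs its change was 0.95 ± 0.49 and did not pass (adjusted p = 0.36; 2.74% of all genes called). Leaving out 1 library gave 0.53 to 1.19 in KO lungs, the lowest without replicate 3 of the treated KO lungs (edgeR adjusted p = 0.87). The difference between these changes, KO minus control, was -0.80 (95% interval -2.20 to 0.61) and did not pass the test (edgeR adjusted p = 1). The call in control lungs was lost when any library other than replicate 2 of the untreated control lungs was left out, with adjusted p up to 0.184.

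Markers of other cells, the share of mitochondrial counts and the library letters moved with the day 2 rise of Cdkn1a. Of the 10 neutrophil markers 5 rose, with summed levels of 152 to 598 CPM in treated lungs, against 107 to 391 CPM in untreated lungs. Of the 9 macrophage markers 3 rose, with sums of 493 to 657 CPM in treated lungs, against 258 to 355 CPM in untreated lungs. Of the 12 genes listed as markers of epithelial cells in transition from alveolar type 2 to type 1, 10 rose. Among them Krt8 rose by 1.47 and Areg by 3.96 on the log2 scale. Sums over this list were 2056 to 2961 CPM in treated lungs, against 1360 to 2656 CPM in untreated lungs. Over the 35 libraries Fn1 alone had a mean of 1140 CPM, where the list sum had a mean of 1931 CPM. Which cells these transcripts came from was not measured, so the rise is not a count of such cells. None of these lists had a marker below a mean of 1 CPM. Of the 6 B cell markers 4 fell, with sums of 189.7 to 360.4 CPM in treated lungs, against 412 to 603 CPM in untreated lungs. At day 2 the neutrophil and transition sums of treated and untreated lungs overlapped, while the macrophage and B cell sums did not. The sums of the club, basal and fat markers and the share of mitochondrial counts were without overlap as well. Mitochondrial genes held 1.63 to 2.57% of counts in treated lungs, against 0.752 to 1.53% in untreated lungs. The club cell sum was 2779 to 4294 CPM in treated lungs, against 8262 to 12221 CPM in untreated lungs. The fat markers, of which Ucp1 and Lep were below a mean of 1 CPM, summed to 29.3 to 41.1 CPM in treated lungs, against 15.7 to 23.3 CPM in untreated lungs. The basal cell markers, of which Krt5, Krt14, Krt17 and Trp63 were below 1 CPM, summed to 4.99 to 10.2 CPM in treated lungs, against 2.21 to 3.65 CPM in untreated lungs. Their part in the rise of Cdkn1a was not tested, and in bulk samples a change in the number of cells of a type and in the RNA per cell cannot be told apart. Among untreated lungs of day 2 the libraries with the letter n had 49.4 and 70.2 CPM of Cdkn1a and those with the letter k 90.1 to 172 CPM; without the libraries lettered n and o the change at day 2 was 1.06 (edgeR adjusted p = 0.0103).

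The other 9 genes did not pass at day 2, and the intervals of 8 of them, over both genotypes, lay within 1 log2 unit of 0. Ccng1, which encodes cyclin G1, a partner of protein phosphatase 2A and of Mdm2, averaged 38.5 CPM in treated lungs and 35.1 CPM in untreated lungs, a log2 change of 0.14 (95% interval -0.18 to 0.47). Mdm2, the ubiquitin ligase that marks p53 for degradation and so closes a feedback loop, averaged 82.1 CPM in treated lungs and 83.6 CPM in untreated lungs, a change of -0.02 (-0.42 to 0.37). Bbc3, which encodes the BH3-only death protein PUMA, averaged 38.4 CPM in treated lungs and 42.7 CPM in untreated lungs, a change of -0.20 (-0.87 to 0.47). The death receptor gene Eda2r, whose product binds ectodysplasin A2, had a change of -0.03 (-0.62 to 0.55). Trp53inp1, which encodes a stress protein active in cell death and autophagy, had 0.28 (-0.10 to 0.65), and Phlda3 -0.12 (-0.56 to 0.32). Zmat3, which encodes an RNA-binding zinc finger protein, had -0.02 (-0.26 to 0.21), and Sesn2, which encodes the leucine sensor sestrin 2 that restrains mTORC1, had 0.02 (-0.35 to 0.39). Gdf15, a secreted cytokine of the TGF-beta family, had 2.81 CPM in treated lungs, 1.99 CPM in untreated lungs and an interval of -0.20 to 1.10 around a change of 0.45. The median change of the 10 genes was -0.0015, beside -0.04 over all genes tested.

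In control lungs at day 2, Gdf15 had 3.51, 3.35 and 3.49 CPM after naphthalene, against 2.43, 1.80 and 2.02 CPM without. These libraries did not overlap, with the treated ones higher, as for 10.7% of all genes. The change of 0.72 did not pass the test (edgeR adjusted p = 0.547). In KO lungs Gdf15 had 2.32, 1.98 and 2.22 CPM after naphthalene, against 1.68, 2.48 and 1.53 CPM without, and these overlapped. Eda2r, at a mean of 1.06 CPM in treated control lungs and 1.35 CPM in untreated control lungs of day 2, was lower without overlap, as for 9.77% of all genes, and did not pass (-0.35, edgeR adjusted p = 0.845).

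**Figure D2:**
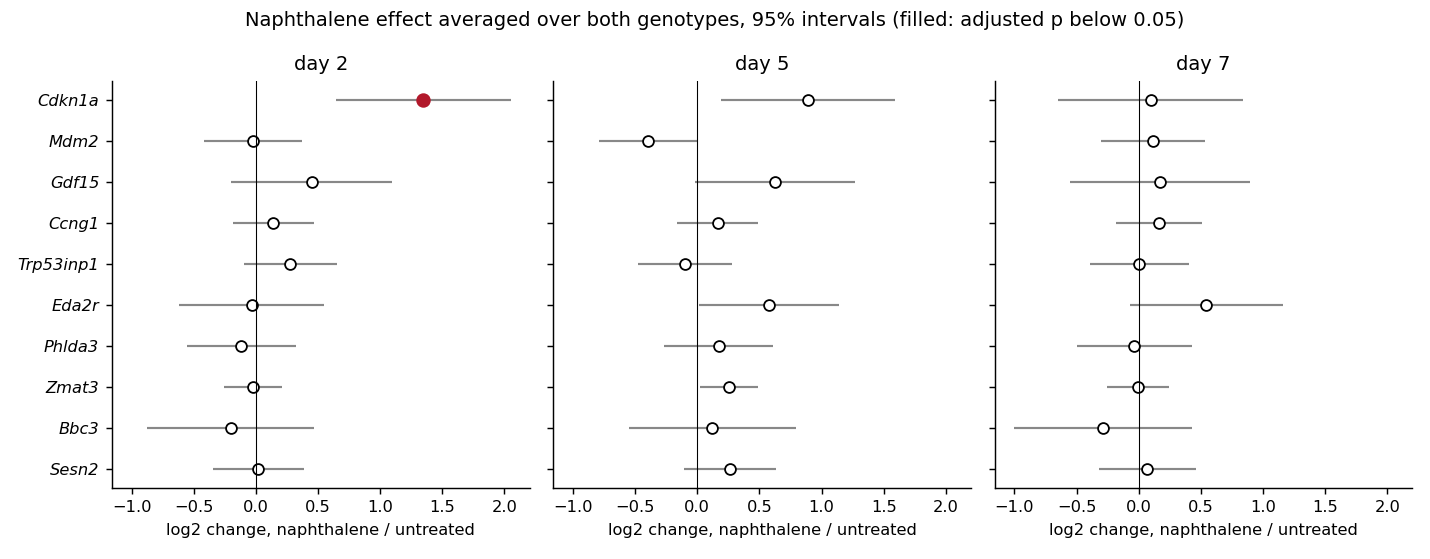
Log2 change after naphthalene, averaged over both genotypes (horizontal axis), for each of the 10 genes at days 2, 5 and 7, with 95% intervals and filled points for adjusted p below 0.05. The point of Cdkn1a at day 2, at 1.35, is the filled one.

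At day 5 no gene of the 10 passed the test over both genotypes with edgeR, or with DESeq2, while 4 had an unadjusted p below 0.05; of all genes 7.16% were called and 26.4% had such a p. Cdkn1a had 164, 171 and 301 CPM in treated KO lungs, against 94.6, 47.7 and 211 CPM in untreated KO lungs. It had 202, 219.6 and 326 CPM in treated control lungs, against 38.1, 134 and 219 CPM in untreated control lungs. The treated and untreated libraries overlapped in both genotypes, and the change was 0.89 ± 0.34 (edgeR adjusted p = 0.102). The untreated libraries lettered o held 38.1 and 47.7 CPM of Cdkn1a and those lettered f 94.6 to 219 CPM, and the change without the letters n and o was 0.49 (adjusted p = 0.313). It passed without replicate 3 of the untreated KO lungs (1.25, adjusted p = 0.0287) or without replicate 3 of the untreated control lungs (1.19, adjusted p = 0.0245), while the fit with the replicate number as a block is given with the other settings. The other 3 with an unadjusted p below 0.05 were Zmat3 (0.26, adjusted p = 0.15), Eda2r (0.57, adjusted p = 0.179) and Mdm2 (-0.40, adjusted p = 0.189), all by edgeR.

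Zmat3 at day 5 had 39.7, 41.3 and 41.1 CPM in treated control lungs, against 29.3, 24.01 and 36.2 CPM in untreated control lungs. It had 31.04, 43.6 and 35.3 CPM in treated KO lungs, against 34.6, 30.6 and 39.7 CPM in untreated KO lungs. The control libraries did not overlap, while the KO libraries did. In control lungs Ccng1 and Eda2r were also without overlap and higher after naphthalene, a pattern of 13.5% of all genes. Ccng1 had 43.9, 39.0 and 46.9 CPM in treated control lungs, against 29.7, 26.5 and 34.6 CPM in untreated control lungs, a change of 0.51 that did not pass (edgeR adjusted p = 0.164).

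At day 7, where every library carries the same letter, none of the 10 genes passed over both genotypes with edgeR or DESeq2, and 0 had an unadjusted p below 0.05, where 0.374% of all genes were called and 5.23% had such a p. Cdkn1a had 184 and 132 CPM in treated KO lungs, against 91.3, 77.5 and 157 CPM in untreated KO lungs. It had 159.9, 132 and 127 CPM in treated control lungs, against 177, 127 and 229 CPM in untreated control lungs. Both pairs of groups overlapped, and the change was 0.10 (95% interval -0.65 to 0.84). In KO lungs of day 7 the libraries of Eda2r did not overlap, with a mean of 2.14 CPM in treated KO lungs (n = 2) and 1.49 CPM in untreated KO lungs (n = 3), as for 8.9% of all genes in this direction, and the change of 0.52 did not pass (edgeR adjusted p = 0.908). The naphthalene change of Cdkn1a at day 7 minus that at day 2 was -1.25 ± 0.50 (95% interval -2.28 to -0.23), which did not pass over all genes (edgeR quasi-likelihood model across all genes, adjusted p = 0.311; 1.01% of all genes called).

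Ordered by group mean, Cdkn1a was highest in treated control lungs of day 2 (372 ± 7.3 CPM, SD, n = 3), which lay above all other libraries. Treated control lungs of day 5 (249 ± 67), treated KO lungs of day 5 (212 ± 77) and treated KO lungs of day 2 (198 ± 87 CPM, SD, n = 3 each) came next and overlapped one another. The remaining groups had means of 178 CPM, in untreated control lungs of day 7, down to 102 CPM, in untreated KO lungs of day 2, and each overlapped with its neighbours in that order.

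Between genotypes none of the 10 genes passed at any treatment and day, on average or in the genotype difference of the naphthalene change, by edgeR or by DESeq2; edgeR called 0% of all genes in each of these, and between 0 and 2 of the 10 had an unadjusted p below 0.05. Averaged over treatments and days, Ccng1 (0.30, unadjusted p = 0.00317) and Bbc3 (-0.43, unadjusted p = 0.0362) had an unadjusted p below 0.05, as had 15% of all genes (edgeR adjusted p of 0.299 and 0.318). After naphthalene at day 2, KO and control libraries did not overlap for 5 of the 10 genes. Ccng1 had 52.99, 40.6 and 42.2 CPM in treated KO lungs, against 36.1, 29.4 and 30.1 CPM in treated control lungs. Bbc3 had 20.9, 29.7 and 29.8 CPM in treated KO lungs, against 47.0, 55.6 and 47.5 CPM in treated control lungs. Eda2r was higher in KO lungs and Cdkn1a and Gdf15 lower in the same way. Of all genes 10.5% were without overlap and higher in KO lungs and 13.5% without overlap and lower. The changes, KO minus control, were 0.51 for Ccng1, 1.07 for Eda2r, -0.90 for Bbc3, -0.91 for Cdkn1a and -0.66 for Gdf15, each with an edgeR adjusted p of 0.756. In untreated lungs Sesn2 at day 2, with means of 21.5 CPM in KO lungs and 32.1 CPM in control lungs, was also lower in KO lungs without overlap, as for 4.74% of all genes. The same held for Zmat3 at day 7, with means of 39.5 CPM in untreated KO lungs and 44.5 CPM in untreated control lungs, as for 3.85% of all genes. Neither passed the test (edgeR adjusted p of 0.842 and 0.952).

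A property of the libraries moved with most of these genes. For each library the log2 deviation of a gene from its mean over libraries was related to the GC content of its transcript, and the slope per 10 percentage points of GC ran from -0.493 to 0.442. With each group's mean subtracted, 9 of the 10 genes were correlated with this slope across the 35 libraries (adjusted over 10 relations, permutation test within groups). The slope is itself fitted to the deviations of 13209 genes. Of all tested genes 37.6% had an r at least as far from 0 as the smallest of these 9. That cut-off was taken from the 9 genes themselves, and whether the count is particular to p53 targets was not tested. Bbc3, whose transcript has 65.2% GC, had r = 0.84 and rho = 0.82, and Phlda3, with 62.6%, had r = 0.84 and rho = 0.85. Ccng1, with 40.8% GC, had r = -0.83 and rho = -0.83, and Mdm2, with 46.2%, had r = -0.80 and rho = -0.84. The permutation p was 1e-05, the smallest that 100000 permutations can give, for Bbc3, Phlda3 and Mdm2 (adjusted p = 3.3e-05), and 2e-05 for Ccng1. The 2 libraries whose slope, with the group mean subtracted, lay farthest from the median were then left out. Without them r was 0.80 for Bbc3, 0.81 for Phlda3, -0.80 for Ccng1 and -0.76 for Mdm2.

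Sesn2 (58.7% GC, r = 0.79, rho = 0.78), Gdf15 (61.3%, r = 0.68, rho = 0.66), Zmat3 (47.6%, r = 0.58, rho = 0.66) and Cdkn1a (54.4%, r = 0.52, rho = 0.56) were higher in libraries of higher slope. Trp53inp1 (38.8%, r = -0.71, rho = -0.77) was lower there, and Eda2r (40.9%, r = -0.21, rho = -0.09, permutation p = 0.44) did not pass. The largest adjusted permutation p of the 9 genes was 0.00579, that of Cdkn1a. Its r was 0.44 without the same 2 libraries, those farthest from the median in slope with the group mean subtracted. Among the 10 genes themselves 32 of 45 pairs had an r of at least 0.33 in size, computed in the same way. This cut-off was the smallest r in size among the pairs that passed the permutation test after adjustment. Of all pairs of tested genes 34.7% reached it. The value of r was 0.86 for Phlda3 and Bbc3 and -0.84 for Mdm2 and Sesn2.

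**Figure D3:**
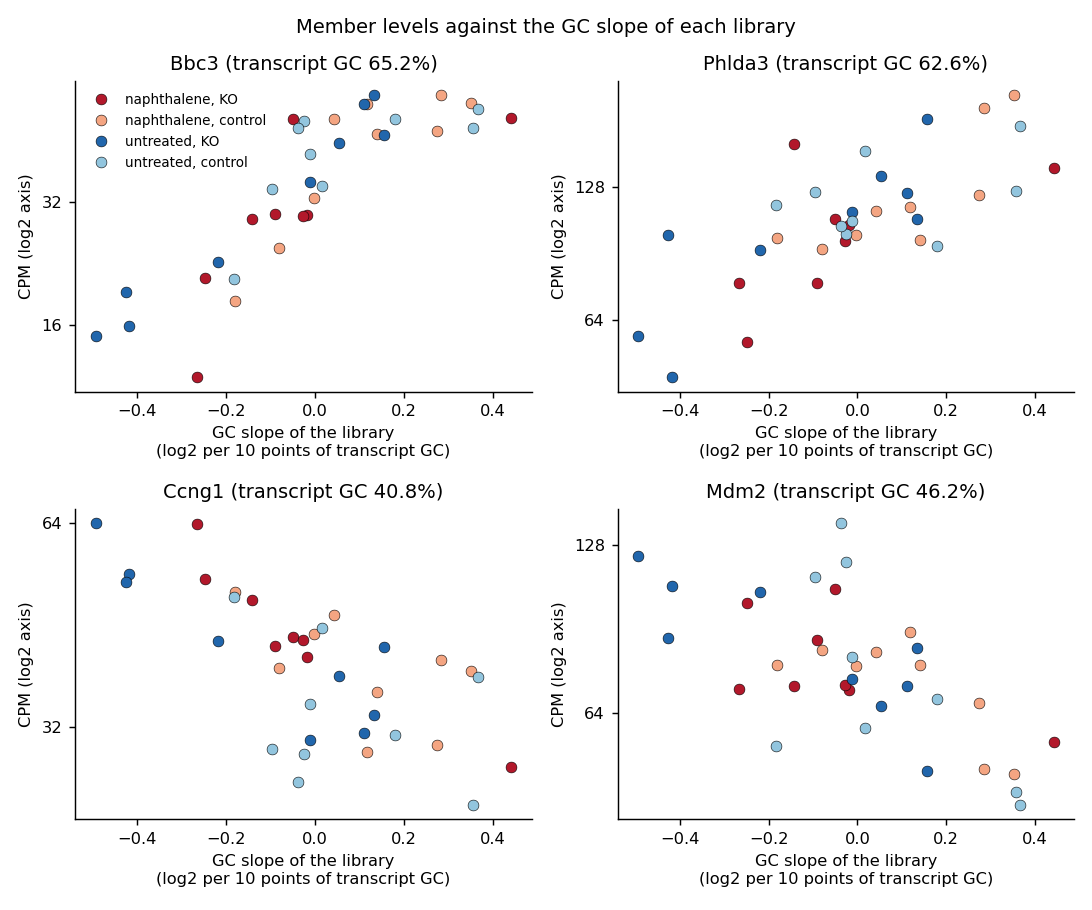
TMM-scaled CPM (log2 axis) of Bbc3, Phlda3, Ccng1 and Mdm2 against the GC slope of each of the 35 libraries, in log2 units per 10 percentage points of transcript GC, coloured by treatment and genotype. Bbc3 and Phlda3, with 65.2% and 62.6% GC, are higher at high slopes, and Ccng1 and Mdm2, with 40.8% and 46.2%, are lower there.

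After naphthalene at day 2 the slopes were -0.248 to -0.0185 in KO libraries and 0.118 to 0.275 in control libraries, without overlap. With a per-library GC correction added after the slopes were seen, the KO minus control changes there were 0.26 for Ccng1, 0.86 for Eda2r, -0.37 for Bbc3, -0.76 for Cdkn1a and -0.28 for Gdf15 (edgeR adjusted p = 0.998). The day 2 naphthalene change of Cdkn1a was 1.39 with this correction (edgeR adjusted p = 0.00479), and that of Ccng1 at day 5 was 0.36 and passed (adjusted p = 0.0193). The part of the slope in the genotype differences was otherwise not tested.

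Among untreated lungs, Mdm2, Trp53inp1 and Zmat3 passed between the day labels 7 and 5, which is 3 of 10 genes where 21.6% of all genes were called. Mdm2 had 66.0, 87.3 and 50.4 CPM in KO lungs and 60.2, 56.0 and 43.8 CPM in control lungs of day 7. It had 108, 106 and 84.0 CPM in KO lungs and 112, 141 and 80.9 CPM in control lungs of day 5. A single library of day 7 lay within the range of day 5, and Mdm2 fell by 0.80 ± 0.19 on the log2 scale at day 7 (edgeR adjusted p = 0.00448). Trp53inp1 averaged 149.9 ± 29 CPM at day 7 and 104 ± 11 CPM at day 5 (SD, n = 6 each), and rose by 0.52 ± 0.18 (edgeR adjusted p = 0.0426), a call lost in 8 of the 12 fits that each left out 1 library. Zmat3 averaged 42.0 CPM at day 7 and 32.4 CPM at day 5, and rose by 0.38 ± 0.11 (edgeR adjusted p = 0.0191), a call lost in 3 of the 12, while Mdm2 passed in all 12. Phlda3, at 144 CPM on day 7 and 97.4 CPM on day 5, missed the threshold (0.58, edgeR adjusted p = 0.0504) and passed it with DESeq2 (0.60, adjusted p = 0.0407), which called 4 of the 10. Day 7 and day 5 libraries share no letter, so day and letter cannot be told apart. Without the letters n and o the Mdm2 change was -0.78 and passed, while Trp53inp1 (0.53, adjusted p = 0.0708) and Zmat3 (0.32, adjusted p = 0.0672) did not pass. No gene of the 10 passed between days 5 and 2 or between days 7 and 2 by edgeR or DESeq2, where 0.476% and 13.8% of all genes were called; 0 and 5 of the 10 had an unadjusted p below 0.05, as had 10.2% and 28.9% of all genes.

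Other genes of the p53 pathway were taken from lists of known targets and regulators. Of 37 further p53 targets, 3 rose and 2 fell at day 2 over both genotypes, which is 13.5% of them where 9.9% of all genes were called; their median change was 0.01, beside -0.04 over all genes. Fas, which encodes a death receptor, had 82.9 CPM in treated lungs and 44.2 CPM in untreated lungs (log2 change 0.91 ± 0.24, edgeR adjusted p = 0.0117). Perp, a desmosome-associated membrane protein gene, had 28.2 CPM in treated lungs and 16.2 CPM in untreated lungs (0.78, adjusted p = 0.0042 by edgeR), and the thiamine transporter gene Slc19a2 rose by 0.56. The polo-like kinase gene Plk2 had 93.5 CPM in treated lungs and 215 CPM in untreated lungs (-1.22 ± 0.26, edgeR adjusted p = 0.0021), and the death receptor gene Tnfrsf10b fell by 0.83. The pro-apoptotic Bax, at 42.7 CPM in treated lungs and 59.2 CPM in untreated lungs, did not pass (-0.50, adjusted p = 0.128 by edgeR).

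At day 5 the targets that rose were Perp (0.77), Psrc1 (1.06), Pltp (0.96), Gtse1 (0.87) and Sulf2 (0.69), and those that fell were Plk2 (-1.04), Plk3 (-0.79), Kitl (-0.66) and Apaf1 (-0.36), which is 9 of 37 where 7.16% of all genes were called. Under the alternatives other than leaving out a library, 4 to 10 of the 37 were called at day 5. Among all genes 605 to 2696 were called in those fits. Treated and untreated libraries share no letter at day 5, so treatment and letter cannot be told apart there. At day 7 none of the 37 passed by edgeR or DESeq2, and 2 had an unadjusted p below 0.05. With the GC correction 10 of the 37 passed at day 2, in place of 5, and 13.2% of all genes passed, in place of 9.9%. Of 15 p53 family members, regulators and kinases, Cdkn2a, whose locus encodes the Mdm2 inhibitor ARF, fell by 2.00 to 0.162 CPM in treated lungs at day 2, against 0.672 CPM in untreated lungs, levels of a few reads, and the p53 ubiquitin ligase gene Rchy1 fell by 0.38. Trp53, which encodes p53, had 76.8 CPM in treated lungs and 98.4 CPM in untreated lungs at day 2 and did not pass (-0.36, edgeR adjusted p = 0.0603).

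Genes tied to the outcomes and other inducers of p53 targets were set beside them, and are read against the 5.6% of all genes that rose and the 4.3% that fell at day 2. Of 20 proliferation genes, Cenpf (-1.24) and Ube2c (-1.03) fell at day 2 and 1 of 20 had a change above 0; the median was -0.62. None of 14 cell cycle genes, a list that holds cyclins and their kinases as well as inhibitors, passed at day 2 by edgeR. Of these 5 had an unadjusted p below 0.05, where 23.1% of all genes had such a p. In the BCL2 family, the survival gene Bcl2l1 rose by 0.64 to 301 CPM in treated lungs, against 188 CPM in untreated lungs, and 12 other tested members did not pass. Of 12 glucocorticoid-induced genes, Fkbp5 (2.15), Mt2 (1.70), Zbtb16 (1.57) and Mt1 (1.56) rose at day 2 and Dusp1 fell by 0.83. Of 19 tested ATF4 and CHOP targets, a list that holds Gdf15 and Sesn2, Slc7a11 (1.45) and Nupr1 (0.62) rose and Mthfd2 (-0.77), Atf3 (-0.87), Atf4 (-0.40) and Ppp1r15a (-0.40) fell. The part of these regulators in the level of Cdkn1a was not tested.

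**Figure D4:**
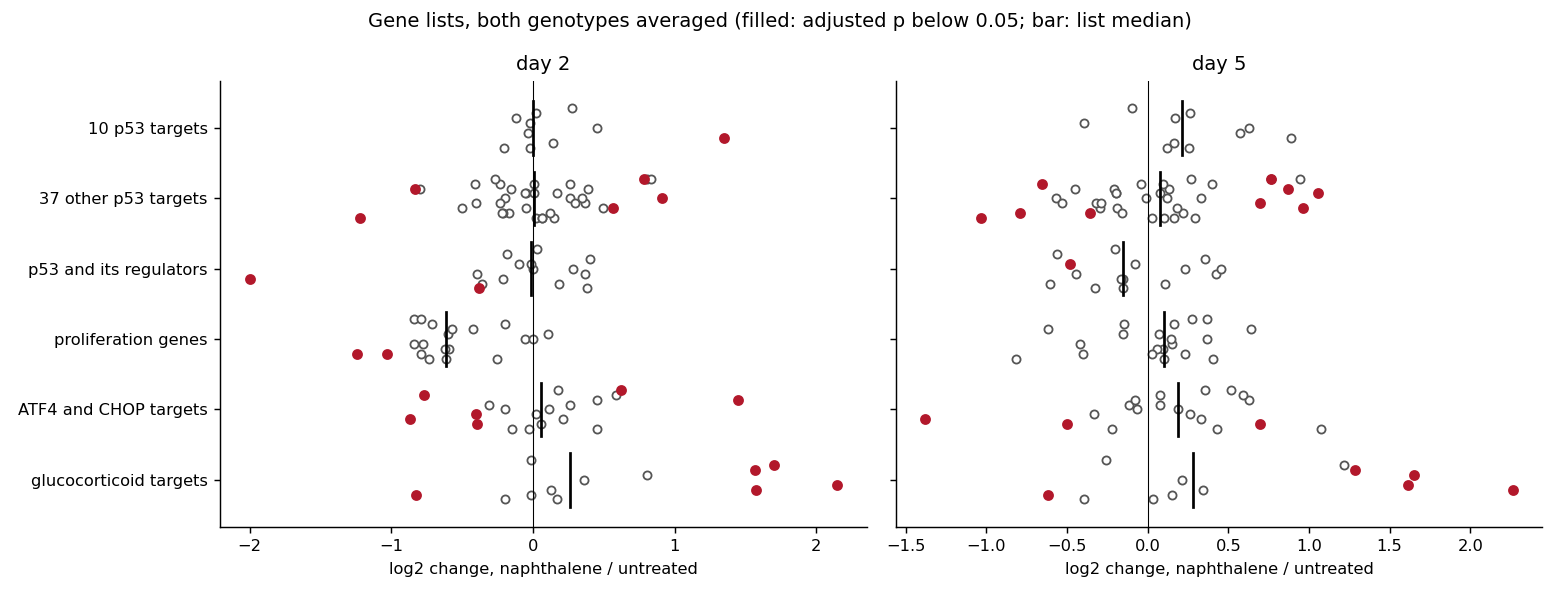
Log2 change after naphthalene over both genotypes (horizontal axis) for the genes of 6 lists at days 2 and 5, with 1 point per tested gene, filled for adjusted p below 0.05, and the list median as a bar. At day 2 the median of the proliferation genes is -0.62 and that of the 37 further p53 targets is 0.01.

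Tinagl1 (r = 0.90), Ddit4 (0.88), Txnip (0.86), Eva1c (0.85) and Foxj1 (0.83) had the patterns most like that of Cdkn1a, by Pearson's r of log2 CPM over the 35 libraries among 11617 genes whose mean reached 5 CPM. Ddit4 had 84.4 CPM in treated lungs and 48.2 CPM in untreated lungs at day 2, a change of 0.81 that did not pass (edgeR adjusted p = 0.0803). The mean of all 10 genes was most like Ddit4 (r = 0.82), Foxj1 (0.80), Snx21 (0.80), Slc25a29 (0.79) and Tspan11 (0.78). The libraries share groups, letters and GC slopes, and these values describe likeness only.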

How the data were processed

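The authors deposited 1 table of whole-number counts per Ensembl gene for 35 libraries of whole mouse lung, made per the labels with a Watchmaker Genomics mRNA kit. The submitters' processing notes name the build GRCm39 and DESeq2; for the aligner, the counter and the annotation, the sources used here give no name. From the counts, edgeR 4.0.16 (R 4.3.3, with limma 3.58.1) was run with TMM scaling, filterByExpr on the 12 groups and 1 robust quasi-likelihood fit of 12 group means (common biological coefficient of variation 0.222). Contrasts were tested two-sided with Benjamini-Hochberg adjustment over 20606 genes and a threshold of 0.05. DESeq2 1.42.0 was an alternative. Totals ran from 10.7 to 21.06 M counts. Replicates of a group differed by more than counting noise (chi-square per degree of freedom at least 8.8). The tests were also run on counts simulated from the fitted means and dispersions. That simulation added no effect of library letter or of a library's GC slope, so it does not check the tests against these. All 10 members are described; genes of the lists are named where called, and otherwise for the smallest p or the highest level, and a few pathway genes (Trp53, Bax and Ddit4) were chosen after their values were seen. The members and lists were chosen with earlier results of these data known. Transcript GC and length came from GENCODE M21, with GC for 97% of tested genes, and promoter windows from RefSeq on GRCm38.p6. Alternatives were other scalings and filters on low counts, DESeq2, a fit of the compared groups alone, the replicate number as a block, and leaving out each library in turn; a GC correction and the omission of untreated libraries lettered n and o were added after the data were seen.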

Additional observations from a re-analysis of the deposited data

Results flagged for a closer look

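Eda2r, the ectodysplasin A2 receptor gene, had naphthalene changes of opposite sign in control lungs of days 2 and 5, neither of which passed. It was picked by a search of the 10 genes for comparisons without overlap and of opposite sign, so the lack of overlap at both days is the rule of the choice. At day 2 it had 1.12, 1.04 and 1.01 CPM in treated control lungs, against 1.17, 1.39 and 1.50 CPM in untreated control lungs, so that every treated library was below every untreated one (log2 change -0.35). At day 5 it had 2.97, 2.79 and 3.14 CPM in treated control lungs, against 1.45, 1.05 and 1.87 CPM in untreated control lungs, so that every treated library was above every untreated one (1.01). Of all genes 9.77% were lower without overlap at day 2 and 13.5% higher without overlap at day 5, and the edgeR adjusted p of Eda2r were 0.845 and 0.122. In KO lungs the pattern was not seen, since treated KO lungs averaged 2.23 CPM at day 2 and 2.16 CPM at day 5, against 1.86 and 1.96 CPM in untreated KO lungs, with overlap at both days and changes of 0.28 and 0.14. The KO day 5 change minus the KO day 2 change was -0.15. In control lungs the day 5 change minus the day 2 change was 1.36 ± 0.57 and did not pass over all genes (edgeR adjusted p = 0.349). Eda2r rests on 9 to 60 reads per library.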

How the results depend on the processing

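The day 2 rise of Cdkn1a over both genotypes passed under each alternative tried other than leaving out a library, with log2 changes of 1.06 to 1.39. Leaving out 1 library gave 1.14 to 1.59, and 0 to 1 genes called. In control lungs leaving out 1 library gave 1.50 to 2.22, adjusted p of 0.0301 to 0.184 and 0 to 1 called. No called change reversed. Of 5570 changes of the 10 genes under alternatives, 390 had the other sign than the value given, each where neither fit called the gene, and these were counted as unaltered. Without a filter on low counts the prior degrees of freedom were infinite for 100% of 39417 genes. A gene's own spread thus had no weight there. In that fit Phlda3 passed between untreated days 7 and 5 (edgeR adjusted p = 0.00121), while Zmat3 did not. That fit called 1 gene at day 2 in KO lungs, 1 in each day 5 naphthalene comparison, 1 in the change of the naphthalene effect between days 7 and 5 and 1 between days 7 and 2, 2 between genotypes after naphthalene at day 2, 1 at day 7 and 2 on average, and 3 between untreated days 7 and 2. The GC correction and the omission of letters n and o were added after the data were seen. The GC correction called 1 gene at day 5 in control lungs and 1 over both genotypes, 5 between untreated days 7 and 5 and 3 between untreated days 7 and 2; without the letters both untreated counts were 1. Leaving out 1 library gave 0 to 1 genes at day 5 in control lungs, 0 to 2 over both genotypes (2 without replicate 3 of the untreated control lungs), 1 to 4 between untreated days 7 and 5 (1 without replicate 2 of the untreated control lungs of day 5 or replicate 3 of the untreated KO lungs of day 7) and 0 to 1 between untreated days 7 and 2. The cause was not tested. Same-numbered replicates had correlations of -0.30 to 0.40, and the main fit did not pair them. These values do not settle whether such replicates belong together. With the replicate number as a block, Cdkn1a passed at day 5 (0.97, edgeR adjusted p = 0.0406), 1 gene in place of 0. In that fit 2006 genes passed at day 2 in place of 2040. Phlda3 between untreated days 7 and 5 also passed with upper-quartile factors (adjusted p = 0.0462), the stricter filter (0.0488), the removal of ribosomal, haemoglobin and mitochondrial transcripts (0.0476) and the GC correction (0.0233).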
